A study of Mus musculus with 6 samples.

Results

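The hypoxia-inducible factors and a set of genes they control were followed in mouse cochlear tissue. The set held 10 genes and was taken by name. It comprised the factor subunits Hif1a, Epas1 and Arnt, the oxygen-sensing hydroxylases Egln1 and Egln3, and the target genes Vegfa, Adm, Bnip3, Car9 and Ankrd37. Every probe whose gene symbol equalled one of these names was included, which gave 19 of the 25697 probes on the array and 10 of its 18138 gene symbols. Of these, 14 probes of 9 genes were above background in WT or Cmah-null mice, and 10 probes of 8 genes were detected on all 6 arrays. No probe of the set passed an adjusted p under 0.05 between the genotypes, and the most conspicuous feature of the set was the third Cmah-null array, in which Egln3, Vegfa, Adm, Epas1 and Egln1 lay above the other Cmah-null arrays while Hif1a and Ankrd37 lay below them.

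Cells sense oxygen through a short circuit. A hypoxia-inducible factor is a pair of an oxygen-labile alpha subunit, Hif1a or Epas1, and a stable partner, Arnt. With oxygen present, prolyl hydroxylases of the Egln family mark the alpha subunit for recognition by the von Hippel-Lindau protein and for destruction by the proteasome. When oxygen is short the alpha subunit persists, enters the nucleus with Arnt and binds a short DNA core at genes for blood vessel growth, glycolysis, acid handling and mitochondrial turnover. Because the alpha subunit is controlled mainly as a protein, its mRNA is not a measure of its activity, and target mRNAs are commonly read in its place. In the cochlea, the stria vascularis is a dense capillary tissue with a high demand for oxygen.

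Total RNA from the cochlear tissue of 12 month-old C57BL/6 mice (C57BL/6J in the study's methods) was hybridized to Illumina MouseRef-8 v2 arrays, a bead array for mouse mRNA, with 1 array per sample. The groups were 3 WT and 3 Cmah-null samples, each listed as a separate replicate. Cmah encodes the enzyme that makes N-glycolylneuraminic acid, a cell surface sugar, and the Cmah-null mice carried a knockout allele in every tissue, so that the difference between the groups cannot be assigned to the cochlea itself. No drug, noise or hypoxia was applied to either group. The comparison asked which genes differ in the cochlea of aged mice that lack this enzyme and lose hearing.

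The arrays differed in ways that bear on every value given here. Between 13873 and 15223 probes were detected per array, at a detection p under 0.05 against negative controls. Cmah-null replicate 3 stood apart, since the log2 difference between it and any other array had an SD of 0.56 to 0.64 over probes, while Cmah-null replicates 1 and 2 lay closer together (SD 0.13) than any other pair (0.31 to 0.44 for the pairs without replicate 3). The records do not tie arrays to animals, so whether those 2 arrays are independent animals is not known, and n counts samples. The probe for Cmah itself read log2 signals of 7.27, 7.28 and 7.87 in WT and 7.95, 7.98 and 7.27 in Cmah-null replicates 1, 2 and 3, detected on 1 WT and 2 Cmah-null arrays, so it gave no check of the genotype labels, and where this probe lies relative to the disrupted part of the gene was not determined. The defining cochlear markers Coch, Gjb2, Gjb6, Otof, Otoa, Tecta and Myo7a were detected, whereas the hair cell markers Slc26a5 and Pou4f3 and the cochlear marker Otor were not above background in either group. Of the same list, Kcne1 was detected on 3 WT and 2 Cmah-null arrays, and Kcnq1 on 2 WT and 0 Cmah-null arrays. The summed signal of the 12 matched cochlear markers was 12193, 20585 and 23346 in WT and 20727, 19955 and 20661 in Cmah-null arrays, lowest in WT replicate 1. Markers of brown fat and skeletal muscle were also present, and the summed signal of 10 brown fat markers ranged from 55910 to 74445 in WT and from 16865 to 32789 in Cmah-null arrays.

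The probes and promoters of the set show what was read and what the genes share. The 3 Egln1 probes, each 50 bases long, begin at positions 1395, 1396 and 1399 of one transcript and share 46 bases, so they are 3 readings of one site and not independent ones. The first 30 bases of each are given, with the 26 shared bases of that stretch in capitals.
Egln1 ILMN_2617086: ctcaATCGTGGCCATCGGCTCCTTGGACAG
Egln1 ILMN_2617087: tcaATCGTGGCCATCGGCTCCTTGGACAGc
Egln1 ILMN_2617090: ATCGTGGCCATCGGCTCCTTGGACAGccac

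The DNA core bound by hypoxia-inducible factors is written here as ACGTG or GCGTG, on either strand. RefSeq promoters (GRCm38.p6), running from 250 bases before to 50 bases after each gene start, were available for 9 of the 10 genes and gave 10 promoters, since Vegfa has 2 annotated starts. At least 1 core was found in 9 of the 10 promoters (90%), against 14380 of all 32851 promoters (43.8%). ACGTG was in 7 (70%), against 19.6% of all, and GCGTG was in 6 (60%), against 32.4% of all. A promoter with 3 or more core positions was found for Hif1a, Bnip3 and Ankrd37 (30% of the set), against 8.93% of all. These matches describe the letters in the window and are not evidence of binding. The promoters of those 3 genes are shown because they hold most cores, and those of Egln3 and Vegfa because these genes differed most among the Cmah-null arrays; the cores are in capitals.
Hif1a promoter, chr12:73907617-73907916, plus strand: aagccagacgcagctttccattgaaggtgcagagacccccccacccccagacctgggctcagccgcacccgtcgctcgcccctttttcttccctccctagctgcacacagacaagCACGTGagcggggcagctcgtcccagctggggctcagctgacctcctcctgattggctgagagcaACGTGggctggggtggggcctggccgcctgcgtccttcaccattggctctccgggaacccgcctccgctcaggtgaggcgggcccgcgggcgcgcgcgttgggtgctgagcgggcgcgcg
Bnip3 promoter, chr7:138909457-138909756, minus strand: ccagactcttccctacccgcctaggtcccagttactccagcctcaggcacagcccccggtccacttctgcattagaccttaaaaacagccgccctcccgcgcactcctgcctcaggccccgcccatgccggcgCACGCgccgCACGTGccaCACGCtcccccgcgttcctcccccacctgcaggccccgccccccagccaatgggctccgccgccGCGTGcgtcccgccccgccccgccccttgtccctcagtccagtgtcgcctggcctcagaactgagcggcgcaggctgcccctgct
Ankrd37 promoter, chr8:45999801-46000100, minus strand: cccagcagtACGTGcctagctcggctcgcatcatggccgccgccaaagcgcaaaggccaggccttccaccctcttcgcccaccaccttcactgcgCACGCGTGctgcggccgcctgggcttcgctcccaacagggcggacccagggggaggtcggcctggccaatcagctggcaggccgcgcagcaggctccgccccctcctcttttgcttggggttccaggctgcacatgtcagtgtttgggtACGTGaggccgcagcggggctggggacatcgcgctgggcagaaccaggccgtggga
Egln3 promoter, chr12:54203825-54204124, minus strand: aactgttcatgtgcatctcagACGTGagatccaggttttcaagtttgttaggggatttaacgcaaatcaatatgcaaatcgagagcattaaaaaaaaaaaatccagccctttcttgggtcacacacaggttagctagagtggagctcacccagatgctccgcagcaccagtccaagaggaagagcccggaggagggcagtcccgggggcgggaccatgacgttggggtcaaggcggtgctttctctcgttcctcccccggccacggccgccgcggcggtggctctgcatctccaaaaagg
Vegfa promoter, chr17:46032328-46032627, minus strand: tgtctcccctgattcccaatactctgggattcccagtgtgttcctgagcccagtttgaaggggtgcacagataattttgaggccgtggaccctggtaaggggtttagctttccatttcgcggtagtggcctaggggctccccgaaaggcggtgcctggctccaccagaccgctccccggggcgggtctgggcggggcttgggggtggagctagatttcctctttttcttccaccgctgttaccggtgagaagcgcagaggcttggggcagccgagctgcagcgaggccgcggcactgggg

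Bnip3 held 5 core positions and Ankrd37 held 4, where the palindrome CACGTG, present in Hif1a and Bnip3, counts as 2 positions because it reads ACGTG on both strands. Egln3 held 1, at 229 bases before the gene start. The Vegfa promoter shown is that of the upstream start and held 0 in these 300 bases, while the window at the second annotated start held 2. Of the promoters not shown, Egln1 and Adm held 2 each, and Arnt and Car9 held 1 each.

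The factor subunits were measured first. Hif1a, the oxygen-regulated alpha subunit found in most cells, read log2 signals of 8.59, 7.94 and 7.78 in WT replicates 1, 2 and 3 and 7.92, 8.17 and 7.59 in the Cmah-null replicates. WT replicate 1 was the highest and Cmah-null replicate 3 the lowest, and the groups overlapped. The log2 fold change, given throughout as Cmah-null minus WT, was -0.21 with a standard error of 0.26 and a 95% interval of -0.84 to 0.42 (limma, adjusted p = 0.841, n = 3 and 3). Without WT replicate 1 it was 0.03, so that the direction rested on that array.

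Epas1, the alpha subunit that predominates in endothelial cells, read 7.87, 7.57 and 7.58 in WT and 7.44, 7.52 and 8.23 in Cmah-null arrays with probe ILMN_3052632, the last of these being the highest of all 6. Cmah-null replicate 1 was not detected with this probe, and the log2 fold change was 0.05 with a standard error of 0.23 (limma, adjusted p = 0.963). Without Cmah-null replicate 3 it was -0.20, with both remaining Cmah-null arrays below every WT array. The second Epas1 probe, ILMN_3129160, was not above background on any array and gave no level.

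Arnt, the partner subunit of both alpha subunits, read 8.18, 7.78 and 7.49 in WT and 7.92, 7.98 and 7.90 in Cmah-null arrays. The 3 Cmah-null arrays lay within the WT range, and the log2 fold change was 0.12 with a standard error of 0.18 (limma, adjusted p = 0.874). A second Arnt probe, ILMN_2607563, was detected on Cmah-null replicate 3 alone, so no fold is given.

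Of the hydroxylases, Egln1, the main oxygen sensor that acts on the alpha subunits, was read at one site by 3 overlapping probes. With probe ILMN_2617090 the values were 8.47, 7.85 and 7.71 in WT and 7.84, 7.87 and 8.71 in Cmah-null arrays. WT replicate 1 and Cmah-null replicate 3 were high, and the other 4 arrays lay close together. Across the 3 probes the log2 fold change was 0.02 to 0.17, with standard errors of 0.25 to 0.31 (limma, adjusted p = 0.868 to 0.990). The highest of these, 0.17, came from ILMN_2617086, which was detected on 1 WT array and on all 3 Cmah-null arrays, whereas the other probes were detected on all 6 arrays. In the 3 probes Cmah-null replicate 3 exceeded the mean of replicates 1 and 2 by 0.47 to 0.85.

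Egln3 is a hydroxylase whose own gene is induced by the factors. Probe ILMN_2605819 read 10.19, 10.71 and 10.46 in WT and 10.004, 9.97 and 11.34 in Cmah-null arrays. Cmah-null replicates 1 and 2 lay below every WT array, while replicate 3 lay above them all and 1.36 above the mean of the other Cmah-null arrays on the log2 scale, the widest gap among the probes of the set. The log2 fold change was accordingly near 0, at -0.02 with a standard error of 0.40 and an interval of -1.002 to 0.97 (limma, adjusted p = 0.993). Without Cmah-null replicate 3 it was -0.47 (limma, adjusted p = 0.324). The other Egln3 probe was not above background on any array.

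**Figure D1:**
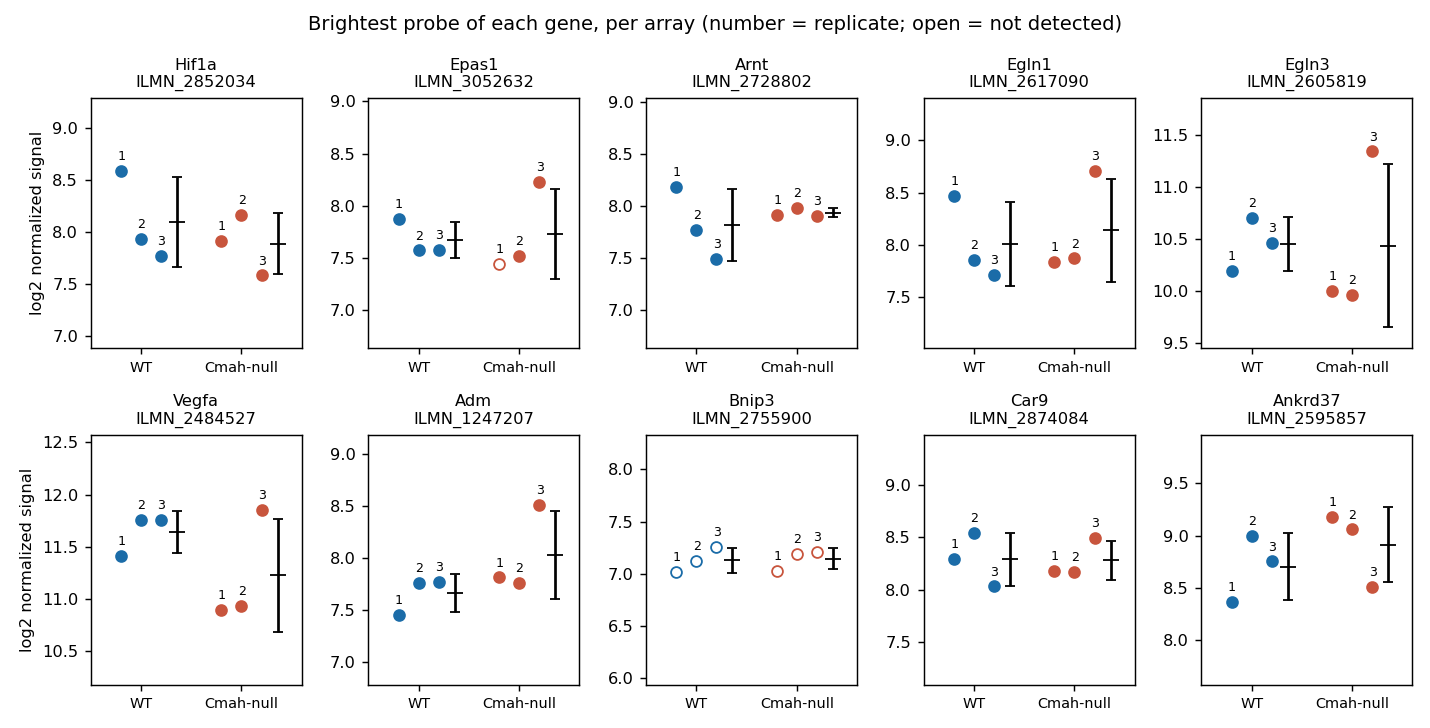
Log2 normalized signal of the brightest probe of each gene (vertical axis) on the 3 WT arrays (blue) and 3 Cmah-null arrays (red), with replicate numbers beside the points, open points where the probe was not detected, and bars for the mean ± SD. Cmah-null replicate 3 is the highest array for Epas1, Egln1, Egln3, Vegfa and Adm, and the lowest for Hif1a; every Bnip3 point is open.

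Among the targets, Vegfa, the main growth factor of blood vessels, had the largest difference of any probe of the set, but not beyond the spread between arrays. Probe ILMN_2484527 read 11.41, 11.76 and 11.76 in WT and 10.90, 10.93 and 11.85 in Cmah-null arrays. Replicates 1 and 2 of the Cmah-null group were below every WT array and replicate 3 was above them. The log2 fold change was -0.41 with a standard error of 0.28 and an interval of -1.11 to 0.29 (limma, unadjusted p = 0.196, adjusted p = 0.720). Without Cmah-null replicate 3 the log2 fold change was -0.73, past 1.5-fold with an unadjusted p of 0.002, yet with an adjusted p of 0.158 in limma. In that fit 467 of all 25697 probes were lower past 1.5-fold with an unadjusted p under 0.05, and 415 were higher. It counts Cmah-null replicates 1 and 2 as independent, which is not known. With those 2 averaged and replicate 3 kept, this probe read -0.26 (limma, adjusted p = 0.870). When arrays were only scaled to a common median, which moved the median log2 fold change of the probes detected on all 6 arrays from 0.03 to 0.30, this Vegfa probe read 0.09.

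The second Vegfa probe, ILMN_3121255, did not follow the first. Its values were 9.20, 9.12 and 9.27 in WT and 9.21, 9.17 and 9.54 in Cmah-null arrays, with a log2 fold change of 0.11 and a standard error of 0.12 (limma, adjusted p = 0.825). Replicates 1 and 2 of the Cmah-null group lay inside the WT range here, so the lower reading of these arrays was seen with 1 of the 2 Vegfa probes above background. The last Vegfa probe was not above background on any array.

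Adm, which encodes the vasodilator peptide adrenomedullin, read 7.46, 7.76 and 7.77 in WT and 7.81, 7.76 and 8.51 in Cmah-null arrays. The groups overlapped at 7.76 and Cmah-null replicate 3 was the highest. The log2 fold change was 0.36 with a standard error of 0.23 (limma, adjusted p = 0.698). It was 0.12 without that replicate and 0.80 with neqc, which subtracts background.

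Car9, a membrane carbonic anhydrase that helps cells export acid, read 8.29, 8.54 and 8.03 in WT and 8.18, 8.17 and 8.49 in Cmah-null arrays with probe ILMN_2874084. The Cmah-null arrays lay inside the WT range and the log2 fold change was -0.01 with a standard error of 0.16 (limma, adjusted p = 0.991). A second probe, ILMN_1244145, was the only one of the set with an unadjusted p under 0.05 (0.037 in limma, adjusted p = 0.569). Of all 25697 probes, 2199 had such a p. The values of this Car9 probe were 7.48, 7.45 and 7.39 in WT, above 7.28, 7.27 and 7.11 in Cmah-null arrays. Only 1 WT array and no Cmah-null array detected it, so no fold is given. The third Car9 probe was not above background on any array.

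Ankrd37, an ankyrin repeat protein whose gene responds to hypoxia, ran the other way from Vegfa. Its values were 8.36, 8.99 and 8.75 in WT and 9.18, 9.06 and 8.50 in Cmah-null arrays. Here Cmah-null replicates 1 and 2 were the highest arrays and replicate 3 lay inside the WT range. The log2 fold change was 0.21 with a standard error of 0.24 (limma, adjusted p = 0.826). It was 0.41 without Cmah-null replicate 3, 0.04 without WT replicate 1, 0.08 without Cmah-null replicate 1 and 0.36 without WT replicate 2. Bnip3, a mitochondrial protein that promotes mitophagy, has 1 probe on this array, which was not above background on any of the 6 arrays, so the target with the most cores in its promoter gave no level.

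**Figure D2:**
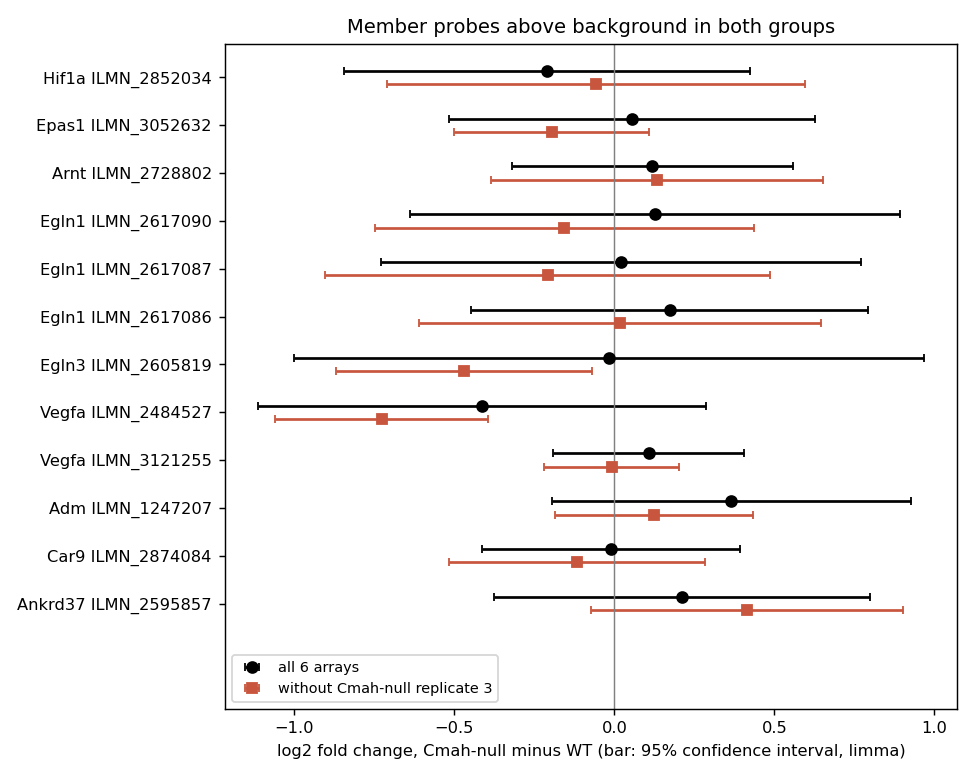
Log2 fold change, Cmah-null minus WT (horizontal axis), of the 12 probes above background in both groups, with 95% confidence intervals from limma, for all 6 arrays (black circles) and without Cmah-null replicate 3 (red squares). With all arrays 12 of the 12 intervals include 0. Without that replicate the Vegfa ILMN_2484527 estimate lies at -0.73 (-1.06 to -0.40) and the Egln3 ILMN_2605819 estimate at -0.47 (-0.87 to -0.07). These intervals leave out 0, with adjusted p of 0.158 and 0.324 in limma, and they count Cmah-null replicates 1 and 2 as independent.

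Counted together, 0 of the 19 probes had an adjusted p under 0.05 in limma (0% of all 25697 probes did). Before adjustment 1 of the 19 was under 0.05 (2199 of all 25697 probes were). By a looser rule, 1.5-fold together with p under 0.05 before adjustment, 0 were higher (1.3% of all probes) and 0 were lower (1.41% of all). The groups did not overlap for 1 probe that was higher (9.11% of all), the undetected Epas1 probe, and for 1 that was lower (7.33% of all), Car9 ILMN_1244145. The median log2 fold change of the 19 probes was 0.08, beside 0.00 for all probes. Without Cmah-null replicate 3, 2 probes were higher without overlap (18% of all probes) and 4 were lower (15.7% of all), the latter being Epas1 ILMN_3052632, Egln3 ILMN_2605819, Vegfa ILMN_2484527 and Car9 ILMN_1244145.

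The set did not move as a block even within the third Cmah-null array. That array was the highest of the 6 for 7 of the 14 probes above background (50%), where it was the highest for 33% of the 16898 such probes on the array, and the lowest for 2 (14.3%, against 31.2%). Of the 7, Arnt ILMN_2607563 was detected on that array alone, so it passed the filter only through the array where it was highest. The other Cmah-null replicates differed from each other by at most 0.25 on the log2 scale in any of the 14 probes. WT replicate 1 was the highest for 5 probes (35.7%, against 21.3% of all such probes). They were Hif1a, Arnt ILMN_2728802, 2 of the overlapping Egln1 probes and Car9 ILMN_1244145. That Car9 probe was detected on WT replicate 1 alone, so it passed the filter only through that array.

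**Figure D3:**
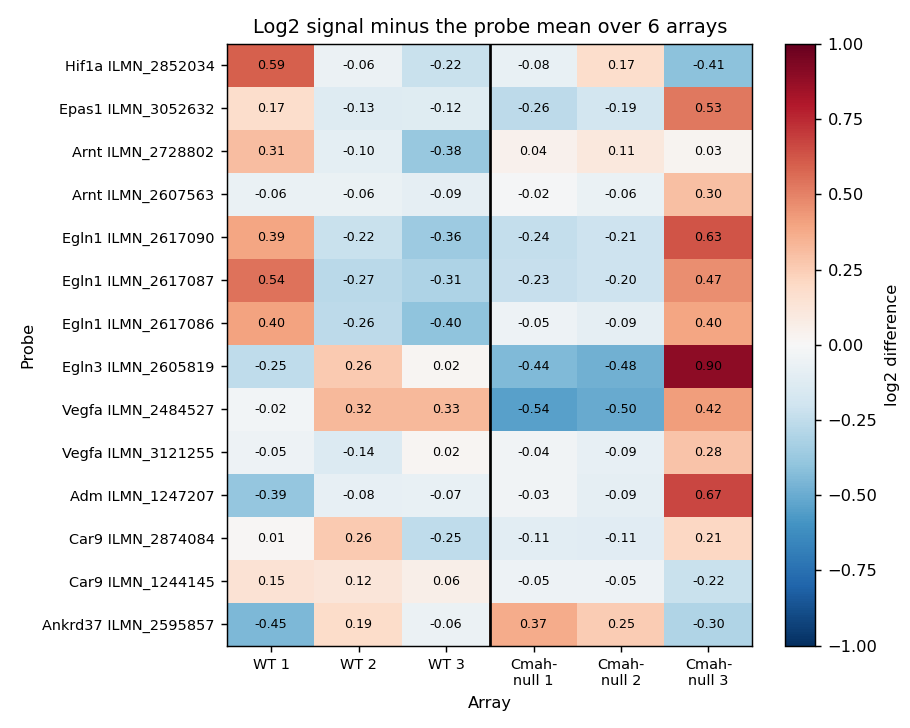
Log2 signal of each of the 14 probes above background in a group, minus that probe's mean over the 6 arrays (colour and printed value, log2 units), with WT arrays left and Cmah-null arrays right of the line. Cmah-null replicate 3 is at 0.90 for Egln3, 0.67 for Adm and 0.42 for Vegfa ILMN_2484527, and at -0.41 for Hif1a.

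The number of beads read per probe also split the arrays, with medians of 34, 32 and 32 for WT replicate 1 and Cmah-null replicates 1 and 2, and 38 to 39 for the others. Within the arrays with fewer beads the log2 fold change of Vegfa ILMN_2484527 was -0.50, and within those with more beads it was 0.10. The matching values were -0.21 and 0.76 for Egln3, and 0.76 and -0.37 for Ankrd37, so the direction differed between the sets of arrays for these 3 genes. Hif1a read -0.55 and -0.27, lower in both. Each of these sets holds 1 array of one genotype, so bead number and the third Cmah-null array cannot be told apart here.

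Markers of blood vessels were set beside Vegfa and Egln3. All 10 endothelial markers were detected on every array, and their summed linear signal was 13634, 15418 and 16049 in WT and 10131, 10585 and 18317 in Cmah-null arrays. The 6 arrays fell in the same order by this sum as by Vegfa ILMN_2484527, with Cmah-null replicates 1 and 2 lowest and replicate 3 highest. The median log2 signal of the same markers, 10.06, 9.64 and 9.42 in WT and 9.34, 9.39 and 9.88 in Cmah-null arrays, gave another order, with WT replicate 1 highest, and Pecam1 and Emcn were lowest in Cmah-null replicate 3, at 8.99 and 10.06. Flt1, a Vegfa receptor of this list that is itself a target of the factors, read 11.42, 11.96 and 12.18 in WT and 11.05, 11.22 and 12.91 in Cmah-null arrays. Without Flt1, Kdr and Tek, the sum of the other 7 markers was 9461, 10237 and 10291 in WT and 7042, 7308 and 9608 in Cmah-null arrays, where replicate 3 lay inside the WT range. In a whole tissue, fewer cells of a type and less RNA per cell cannot be told apart, and the part of vessel content in the Vegfa and Egln3 values was not tested. The brown fat sum ran differently, with Cmah-null replicate 3 lowest at 16865, and its part was not tested either.

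**Figure D4:**
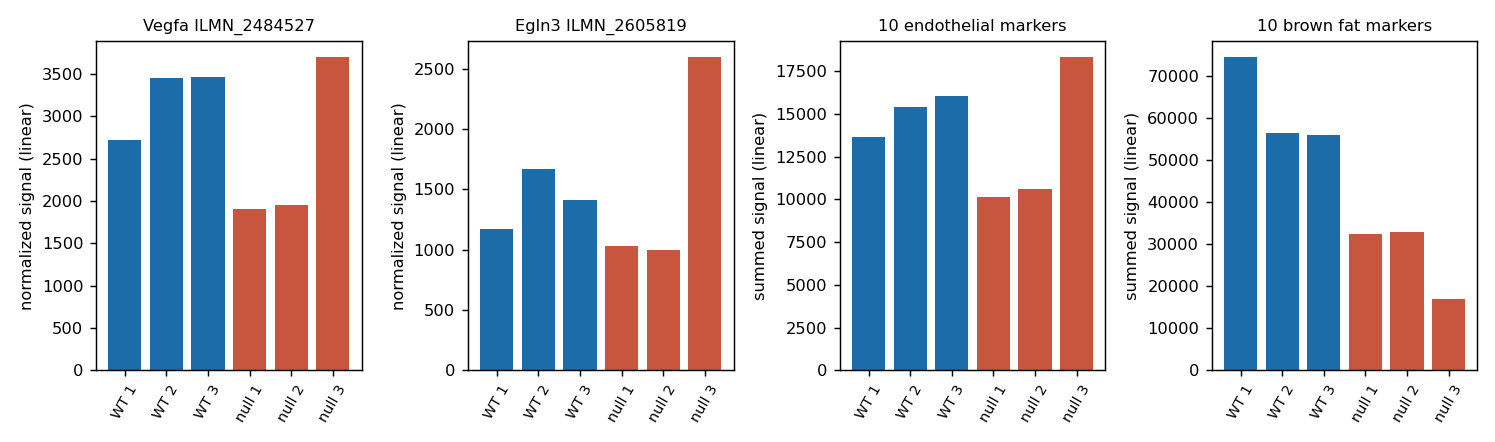
Linear normalized signal of Vegfa ILMN_2484527 and Egln3 ILMN_2605819, and summed linear signal of 10 endothelial and 10 brown fat markers (vertical axes), on each array (WT blue, Cmah-null red). The endothelial sum is highest at 18317 in Cmah-null replicate 3, as are Vegfa and Egln3, while the brown fat sum is lowest there at 16865.

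The rest of the pathway was read from lists of genes that are not members of the set, with the brightest probe of each gene. No gene of these lists passed an adjusted p under 0.05 in limma. Values under median scaling are given beside the array-wide shift of that setting. There the median log2 fold change of the probes detected on all 6 arrays was 0.30, in place of 0.03. Of 18 genes of the oxygen-sensing machinery, 16 were above background, 7 of the 18 read higher and 11 read lower in the Cmah-null group, and the median log2 fold change was -0.04 (0.08 under median scaling). Among them Egln2, a further hydroxylase, read -0.21 with a standard error of 0.16 (0.03 under median scaling), and Hsp90aa1, a chaperone of the alpha subunits, read -0.49 with a standard error of 0.24 (limma, adjusted p = 0.744 and 0.630). Hif1an, which hydroxylates the alpha subunits at an asparagine, was not above background in either group.

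Among the glycolytic targets, Slc2a1 was higher while most of the list was lower. Slc2a1, a glucose transporter of the blood-labyrinth barrier, read 11.06, 11.05 and 11.47 in WT and 11.68, 11.63 and 12.65 in Cmah-null arrays. All 3 Cmah-null arrays were above all 3 WT arrays, and the log2 fold change was 0.79 with a standard error of 0.30 (limma, unadjusted p = 0.043, adjusted p = 0.574), or 0.46 without Cmah-null replicate 3 and 1.30 under median scaling. It was the only gene of the 17 matched that passed 1.5-fold with an unadjusted p under 0.05 in limma (1.3% of all probes did so higher, 1.41% lower). Without overlap, 1 of the 17 was higher (9.11% of all probes) and 3 were lower (7.33% of all). In all, 12 of the 17 were lower, and the list median was -0.17. Under median scaling the list median was 0.21, beside 0.30 for the probes detected on all 6 arrays.

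Pdk1, the kinase that keeps pyruvate out of the mitochondrion, read 8.94, 8.66 and 8.58 in WT and 8.40, 8.30 and 8.35 in Cmah-null arrays, without overlap, and its log2 fold change was -0.38 with a standard error of 0.11 (limma, adjusted p = 0.506). The glycolytic enzymes Tpi1 and Pfkp also lay lower without overlap, with log2 fold changes of -0.52 and -0.77 (limma, adjusted p = 0.579 and 0.595). The nearest arrays of the groups read 14.17 and 14.15 for Tpi1, and 10.27 and 10.24 for Pfkp. Under median scaling Pdk1 read -0.21, Tpi1 -0.09 and Pfkp -0.37, and without Cmah-null replicate 3 Tpi1 read -0.34. Skeletal muscle is rich in glycolytic enzymes, and its markers read lower for 11 of 11 genes, though Myh2 by only -1.2e-05. Under median scaling Myh2 read 0.47, Acta1 0.18 and Tnnt3 0.17, while the other muscle markers stayed lower. The summed signals of the muscle markers were 346681, 362022 and 202117 in WT and 219653, 216377 and 213029 in Cmah-null arrays. The part of muscle in the Pdk1, Tpi1 and Pfkp values was not tested. Pgk1 and Pfkfb3 were not above background in either group.

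Of the 17 vascular targets, 9 were higher and 8 lower, with a median of 0.02. Tek, the angiopoietin receptor of endothelial cells, read 10.26, 9.99 and 9.83 in WT and 9.58, 9.44 and 9.69 in Cmah-null arrays. The groups did not overlap and the log2 fold change was -0.45 with a standard error of 0.14 (limma, adjusted p = 0.505), or -0.10 under median scaling. Tfrc, the transferrin receptor, had the widest fold change, -1.19, but with a standard error of 0.66 (limma, adjusted p = 0.670), and read -0.62 without Cmah-null replicate 3 and -0.74 under median scaling. Markers of red cells, which carry much Tfrc as they mature, had summed signals of 91592, 129358 and 93253 in WT and 94938, 93928 and 83306 in Cmah-null arrays, and their part in the Tfrc value was not tested. Pgf, the placental growth factor, read 0.33 with a standard error of 0.22 (limma, adjusted p = 0.712), or 0.09 without Cmah-null replicate 3. Angptl4, a secreted lipase inhibitor, read -0.82 with a standard error of 0.47 (limma, adjusted p = 0.680), or -0.42 without that replicate and -0.37 under median scaling, and Epo, the classical renal target, was not above background in either group.

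Among the 14 cell stress targets matched, 5 were higher and 9 lower, with a median of -0.09. Under median scaling the list median was 0.26, beside 0.30 for the probes detected on all 6 arrays. Vldlr, a lipoprotein receptor, lay lower without overlap, at -0.38 with a standard error of 0.14 (limma, adjusted p = 0.563), or 0.11 under median scaling. Fam162a, a mitochondrial protein, read -0.41 with a standard error of 0.16 (limma, adjusted p = 0.577), and 0.08 under median scaling. Car12, a carbonic anhydrase like Car9, read 0.50 with a standard error of 0.22, and Stc2, a secreted glycoprotein, 0.56 with a standard error of 0.27 (limma, adjusted p = 0.607 and 0.630). Without Cmah-null replicate 3, Stc2 read 0.29.

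Of the 8 matrix targets matched, 6 were higher and 2 lower, with a median of 0.15, or 0.47 under median scaling. Plaur, the urokinase receptor, had the smallest p of all the pathway genes named. It read 7.70, 7.99 and 7.82 in WT and 8.31, 8.31 and 8.30 in Cmah-null arrays, which did not overlap. Its log2 fold change was 0.47 with a standard error of 0.09 (limma, unadjusted p = 0.003, adjusted p = 0.397) and was not carried by replicate 3, being 0.47 without it. P4ha2, a collagen prolyl hydroxylase, also lay higher without overlap, at 0.40 with a standard error of 0.21 (limma, adjusted p = 0.650), but the nearest arrays of the groups read 9.340 and 9.344, and without Cmah-null replicate 3 it read 0.18.

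**Figure D5:**
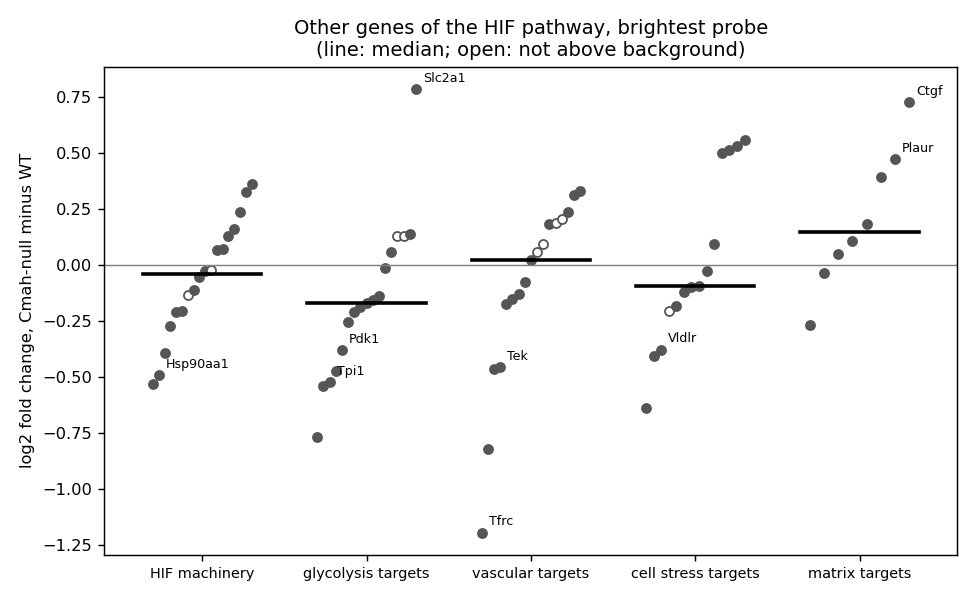
Log2 fold change, Cmah-null minus WT (vertical axis), of the brightest probe of each gene in 5 lists of the pathway (horizontal axis), with a line at each list's median and open points for genes not above background in either group. Slc2a1 stands at 0.79 above a glycolysis median of -0.17 (0.21 under median scaling), and Tfrc lies lowest at -1.19; no gene shown had an adjusted p under 0.05.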

How the data were processed

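Cochlear RNA of 3 WT and 3 Cmah-null samples was read on 6 arrays, 1 for each sample. The authors deposited intensity values (average bead signals on a linear scale, without normalization), the number of beads per probe as other values, and a detection p-value per probe against negative controls. They also deposited log2 values, and quantile normalization of the raw signals on the log2 scale gave these back to within 5.0e-07. In these tables the second group is named "old", and its columns were taken as the Cmah-null samples because the WT columns are named as such and no other group remains. Another 12 columns repeat signals and detection p-values and were not used. Columns with the authors' own comparison (a signed fold change, a local pooled error statistic and its adjusted p) were not used. The genome build of the probe coordinates is not given in the sources used here.

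The deposited log2 values of all 25697 probes were fitted with limma 3.58.1 (R 4.3.3) by lmFit with moderated variances from eBayes, without covariates and over all 6 arrays, two-sided, with Benjamini-Hochberg adjustment over all probes, and tested on simulated data. A probe was called detected at a detection p under 0.05, and called different at an adjusted p under 0.05 or, by a looser rule, at 1.5-fold and p under 0.05 before adjustment. Each sample is a separate record, nothing states how the tissue was pooled, and p-values measure only the spread between these samples, whose number limits the precision. For single values an exact permutation test of 3 against 3 cannot go below 0.1 and was not used.

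Every probe of the 10 genes is reported, and Cmah. From each pathway list, genes past the looser rule and up to 4 with the smallest p among probes detected on all arrays of a group could be named, with genes not above background named as such. Members and lists were chosen with earlier results of these data known. Promoter sequences came from RefSeq, probe sequences from the deposited annotation. Alternatives were neqc (offset 16), median scaling, normexp (offset 50), keeping probes with detection on 3 or more arrays, a replicate block, another variance prior, an ordinary test, each array left out, Cmah-null replicates 1 and 2 averaged, a block for bead number and another probe per gene. Matplotlib 3.10.9 (Python 3.11.15) drew the figures.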

Additional observations from a re-analysis of the deposited data

How the results depend on the processing

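No probe of the set reached an adjusted p under 0.05 in limma under any of the 9 alternatives or without any of the 6 arrays, but 9 of the 14 probes above background changed sign somewhere, and the cause was not tested. Median scaling gave log2 fold changes of -0.065 for Epas1, -0.046 for Egln1 ILMN_2617087, 0.42 for Egln3, 0.092 for Vegfa ILMN_2484527 and 0.084 for Car9 ILMN_2874084, and list medians of 0.21 for glycolysis, 0.26 for cell stress and 0.47 for matrix targets. Under that scaling the median of the probes detected on all 6 arrays was 0.30. Averaging Cmah-null replicates 1 and 2 gave 0.21 for Egln3, 0.043 for Car9 and 0.036 for the cell stress median, and 5 probes of the set without overlap in place of 2 (22.7% of all probes, in place of 16.4%). A block for bead number gave 0.27 for Egln3, 0.042 for Car9, -0.0040 for Egln1 ILMN_2617087 and 0.068 for the cell stress median, and 3 probes of the whole array then had an adjusted p under 0.05, of which 0 were in the set. The filter on detected probes left 0 probes of the set without overlap (19.1% of all probes kept). With single arrays left out the ranges were -0.37 to 0.035 for Hif1a, -0.20 to 0.20 for Epas1, -0.043 to 0.30 for Arnt ILMN_2728802, -0.16 to 0.36 for Egln1 ILMN_2617090, -0.21 to 0.30 for ILMN_2617087, -0.47 to 0.22 for Egln3, -0.0083 to 0.18 for Vegfa ILMN_3121255, -0.14 to 0.12 for Car9 and -0.22 to 0.054 for the cell stress median. The number of probes of the set past 1.5-fold with an unadjusted p under 0.05 ranged from 0 to 1, which was Vegfa without Cmah-null replicate 3. In that fit 467 of all 25697 probes passed lower and 415 higher. With single arrays left out, the number of the set without overlap ranged from 2 to 7. It was 7 without WT replicate 1 (30.9% of all probes), 6 without Cmah-null replicate 3 (33.6%) and 4 without Cmah-null replicate 2 (23.6%). Fewer arrays make such separation commoner by construction.

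Over the whole array 697 probes passed 1.5-fold with an unadjusted p under 0.05, 334 higher and 363 lower. The count was 1482 with neqc, 2488 with median scaling (2409 higher and 79 lower), 395 with the ordinary test, 1728 with the bead block, and 429 to 1037 with single arrays left out, lowest without WT replicate 2. With the replicate block it was 811, and 0 probes of the set passed. Same-numbered arrays were not treated as pairs in the main fit. Their deviations from the group means correlated at 0.02, -0.17 and 0.01 over 12410 probes. Arrays with unlike numbers gave -0.10 to 0.17, a similar size, so these values cannot decide whether the samples were paired. Of the 19 probes, 5 were not above background in either group and give no level.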
